A study of Mus musculus with 4 samples.

Results

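The ATG12-ATG5-ATG16L conjugation genes were followed in mouse thymocytes in which one of them, Atg16l1, is the mutated gene. The members are Atg16l1, its paralogue Atg16l2, Atg5, Atg12, Atg7, Atg10 and Atg3. They were chosen by symbol: every probe set (the group of short probes that measures 1 transcript on an Affymetrix array) whose platform annotation gave a member symbol alone was taken. This gave 17 probe sets for 7 genes, out of 45037 probe sets and 18193 genes on the arrays. All 7 genes matched the RefSeq gene table by Entrez identifier.

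RNA came from whole, unsorted thymocytes of animals aged 7 weeks. The arrays fall into 2 hypomorphs (mice with an Atg16l1 allele of reduced function) and 2 controls, which the labels describe as wild type, with 1 array per animal. The series text calls the animals independent and lists 1 male and 1 female in each group, without tying sex to an array. The sources used here do not give the strain, how the allele was made or whether it acts in some tissues only.

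These genes encode 2 linked reactions that resemble ubiquitin conjugation. ATG12 is a ubiquitin-like protein, which the E1-like enzyme ATG7 activates and the E2-like enzyme ATG10 attaches to ATG5. The ATG12-ATG5 conjugate binds ATG16L1, which brings it to the growing phagophore membrane. There it acts like an E3 for ATG3, the E2-like enzyme that joins LC3 and GABARAP proteins to phosphatidylethanolamine, and ATG7 is also the E1 of that reaction. ATG16L2 likewise binds ATG5 but is not held to replace ATG16L1 in starvation-induced autophagy. In the T lineage, loss of Atg5 or Atg7 is known to impair the survival of mature T cells.

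The promoters of 3 members share a sequence feature that the choice of members did not use. It is the palindromic E-box CACGTG, the core of the element bound by TFEB, a transcription factor of lysosomal and autophagy genes. RefSeq promoter windows of build GRCm38.p6, from 250 bases before to 50 after a gene start, were read for Atg16l2, Atg5, Atg7, Atg10 and Atg3. The search passed over windows on a chromosome left out by rule, and read none for Atg16l1 or Atg12. CACGTG, which reads the same on both strands, occurred once in Atg5, once in Atg7 and 2 times in Atg3, but not in the windows of Atg16l2 or Atg10. Over 32851 such windows 7.15% held CACGTG at least once and 0.594% at least 2 times. The matches are shown in capitals with their flanks, as the members in which the feature is present. The Atg7 window belongs to a start inside the gene, downstream of its first annotated base.
Atg3, forward strand, chr16:45158710-45158788: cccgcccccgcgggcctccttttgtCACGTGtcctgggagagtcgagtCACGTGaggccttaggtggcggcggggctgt
Atg5, forward strand, chr10:44268300-44268338: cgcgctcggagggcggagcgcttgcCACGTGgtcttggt
Atg7, forward strand, chr6:114670939-114670994: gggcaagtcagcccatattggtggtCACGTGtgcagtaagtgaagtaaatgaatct
The copies in Atg3 begin 94 and 71 bases before the start, that in Atg5 14 bases and that in Atg7 132 bases before it. A match describes these letters only and is not a measured binding site.

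Median deposited signals differed between the arrays, from 23.5 to 38.4. The 3' cre spike, a control transcript added at hybridization, had signals of 9216 to 9499, so the spike varied far less than the medians. The spike was not used for scaling. Because the medians of log2 signals spanned more than a limit of 0.3, each array was scaled to a common median. Values were analysed as log2(centred signal + 2.29). The 27 control probe sets for Bacillus subtilis transcripts had signals of 0.475 to 19.1 and served as a gauge of signal without a mouse target. No detection calls are at hand. Of 10 thymocyte markers named on the arrays (Cd3e and Cd4 among them), 10 lay above every B. subtilis control of their array on all 4 arrays, against 3 of 7 markers of thymic epithelium and stroma and 0 of 3 erythroid markers with a probe set of their own. Haemoglobin genes are also measured by 4 probe sets that several of them share and that are in no list. All 4 lay above the B. subtilis controls on all arrays, and their values stand with the other markers at the end.

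Of the 17 member probe sets 13 lay above every B. subtilis control on all arrays. The test was run on the 22519 probe sets whose mean signal over the 4 arrays reached the median of such means. This filter passed 12 member probe sets, at least 1 for each of the 7 genes, and left out 5 dim ones. Signals of different probe sets are not set against each other here, since each has its own affinity.

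**Figure D1:**
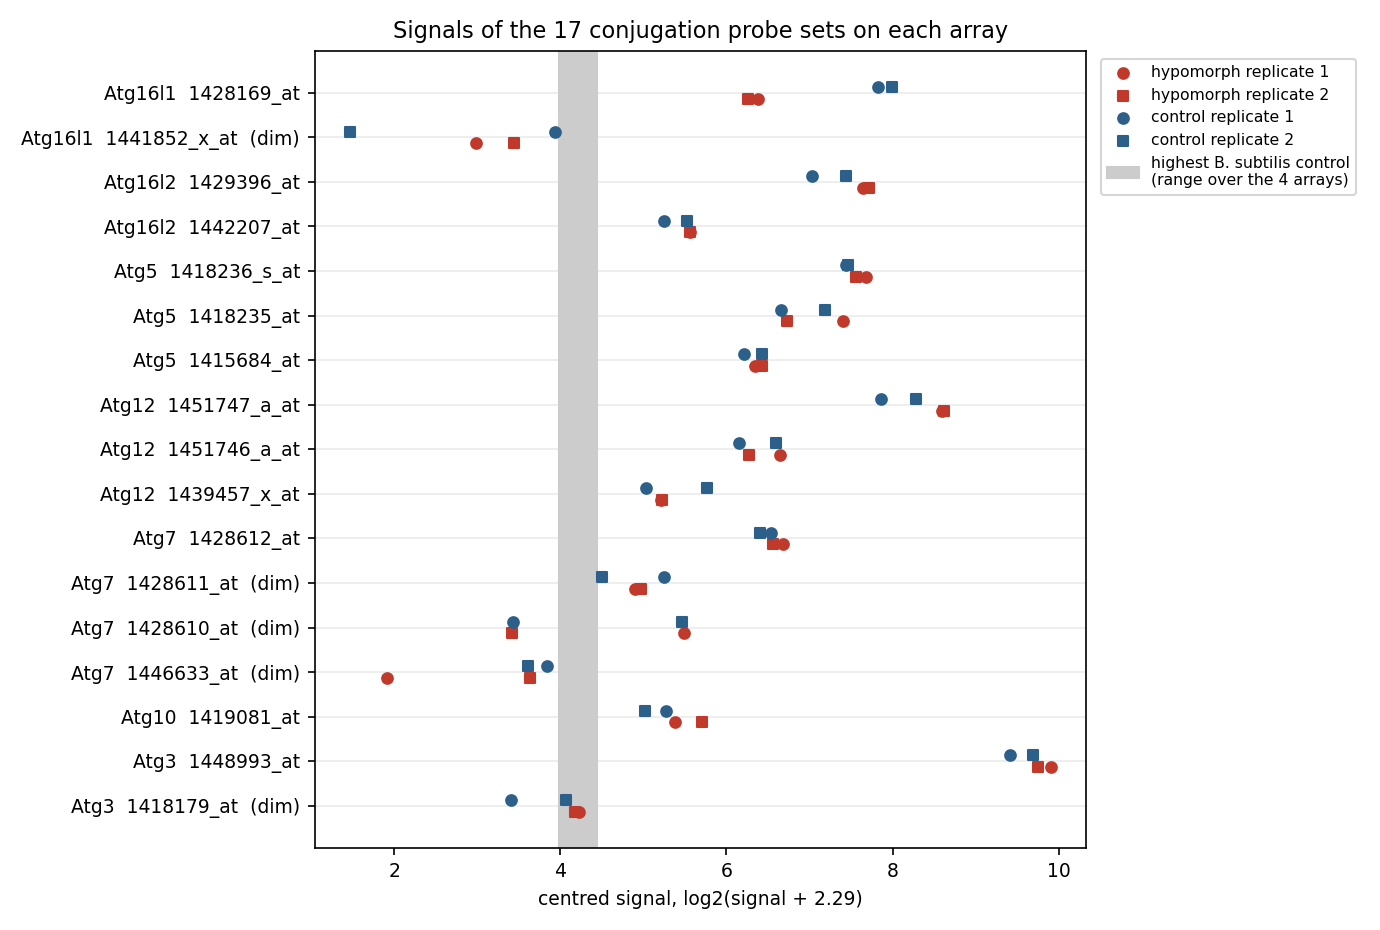
Centred signals, log2(signal + 2.29) on the x axis, of the 17 member probe sets (rows) on each of the 4 arrays (points, coloured by group and shaped by replicate). The grey band spans the highest B. subtilis control of each array, and probe sets marked dim were not tested. The brighter Atg16l1 probe set is the row in which both hypomorph points lie well to the left of both control points.

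The brighter Atg16l1 probe set fell to 33.1% of its control level in hypomorph thymocytes, and no other member passed the test. Where its probes lie relative to the mutation is not known, so it need not measure every Atg16l1 transcript. This probe set, 1428169_at, read 108 and 70.8 in the hypomorphs and 184 and 241 in the controls, as deposited. Both hypomorph arrays were lower than both control arrays, before and after centring. Mean centred log2 signals were 6.32 ± 0.08 (SD, n = 2) in hypomorphs and 7.91 ± 0.12 (SD, n = 2) in controls. The log2 change, hypomorph minus control, was -1.59 ± 0.18 (SE; limma, adjusted p 0.0150). The share of the control level that remained had a 95% confidence interval of 25.2 to 43.5%. Compared array by array, each hypomorph had 29.4 to 35.9% of the centred signal of either control. In bulk RNA, fewer cells that express a gene and less RNA per cell cannot be told apart.

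Set against the whole array, the Atg16l1 fall was the 25th largest among 22519 tested probe sets and had the 5th smallest p. Over all tested probe sets 12 passed at an adjusted p under 0.05, a share of 0.0533%, and 3 of these were lower in hypomorphs, a share of 0.0133%. The tested probe sets had a median change (log2) of 0.17 in place of 0. Centring acted on all 45037 probe sets, dim ones included, and over these the median change was 0.11. Relative to that median, Atg16l1 changed by -1.76. The call depended on the control animals: leaving out control replicate 1 gave an adjusted p of 0.0700 and leaving out control replicate 2 one of 0.0640, with log2 changes of -1.68 and -1.51. It was also lost on uncentred signals, without the filter, without the variance trend and with the replicate number as a block (adjusted p 0.0988, 0.120, 0.239 and 0.0909), all with the gene lower.

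**Figure D2:**
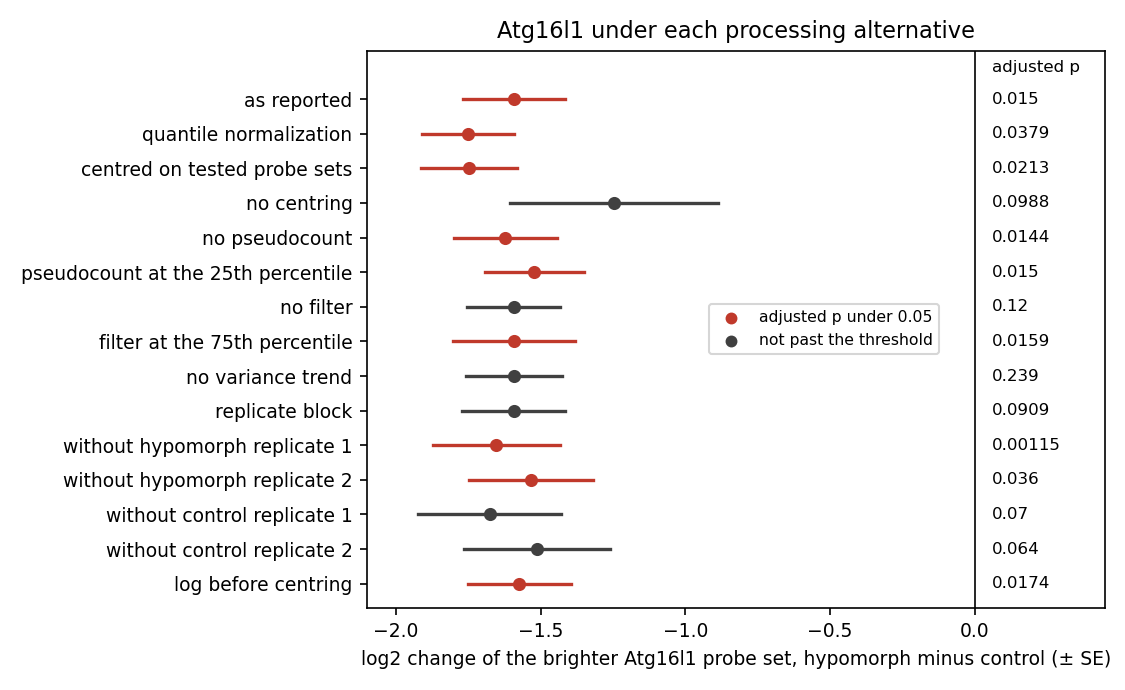
Log2 change of the brighter Atg16l1 probe set, hypomorph minus control, with its standard error (x axis) as reported and under each of 14 alternatives (rows). The adjusted p in limma stands at the right and red marks a value under 0.05. All estimates lie between -1.75 and -1.25, and 6 of the 14 alternatives miss the threshold.

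The dim Atg16l1 probe set, 1441852_x_at, had signals of 7.55 and 8.18 in hypomorphs and 10.7 and 0.445 in controls. It was below the highest B. subtilis control on each of the 4 arrays. Its suffix marks probes that may also bind other transcripts. In the fit without a filter its log2 change was 0.51 ± 0.83 (SE), so it gives no reading of Atg16l1 in either direction.

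Signals of the paralogue Atg16l2 were not lower in hypomorphs. Its brighter probe set, 1429396_at, had signals of 266 and 198 in hypomorphs and 106 and 164 in controls. Both hypomorphs were the higher pair, with control replicate 1 lowest. The log2 change was 0.44 ± 0.18 (SE), with a 95% interval of 0.04 to 0.85, an unadjusted p of 0.0355 and an adjusted p of 0.356 in limma. Relative to the median of tested probe sets it was 0.28, and without control replicate 1 the log2 change was 0.24. The other probe set, 1442207_at, had signals of 60.3 and 42.8 against 29.3 and 41.8, and its log2 change was 0.18 ± 0.30 (SE; adjusted p 0.793). The data thus hold no called change of Atg16l2, and the interval of its brighter probe set reaches no higher than 1.80 times the control level.

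Atg5 encodes the acceptor to which ATG12 is joined. Its brightest probe set, 1418236_s_at, had signals of 272 and 177 in hypomorphs and 140 and 166 in controls. After centring both hypomorphs stood slightly above both controls. The log2 change was 0.17 ± 0.16 (SE; limma, adjusted p 0.616) with a 95% interval of -0.18 to 0.52. The second, 1418235_at, had 224 and 99.0 in hypomorphs and 80.8 and 137 in controls. Here the animals within a group differed more than the groups, and the log2 change was 0.15 ± 0.26 (SE). The third, 1415684_at, had 105 and 80.2 against 58.8 and 79.8 and a log2 change of 0.07 ± 0.22 (SE). Relative to the median of tested probe sets the changes of the 3 were 0.01, -0.02 and -0.10. The suffix of the brightest one marks probes shared between transcripts.

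Atg12, the ubiquitin-like protein gene, gave probe sets that differed among themselves. The brightest, 1451747_a_at, had signals of 513 and 373 in hypomorphs and 188 and 294 in controls. The hypomorphs were close to each other after centring and above both controls. The log2 change was 0.54 ± 0.17 (SE), the highest among the 12 tested members, with a 95% interval of 0.17 to 0.91. Its unadjusted p was 0.00888 and its adjusted p 0.313 in limma, so it was not called. Without control replicate 1, the array with the lowest signal, the log2 change was 0.33, and without control replicate 2 it was 0.75.

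The other Atg12 probe sets did not share that value. For 1451746_a_at the signals were 130 and 71.5 in hypomorphs and 56.4 and 90.4 in controls, a log2 change of 0.08 ± 0.24 (SE). For 1439457_x_at they were 46.7 and 33.4 in hypomorphs and 24.9 and 49.8 in controls, a log2 change of -0.18 ± 0.35 (SE). In both, the hypomorph range overlapped the control range, and control replicate 2 stood above control replicate 1. Across the 3 probe sets the estimate for this gene thus ran from -0.18 to 0.54.

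Atg7 encodes the E1-like enzyme of both reactions. Only 1 of its 4 probe sets was tested: 1428612_at had signals of 134 and 88.2 in hypomorphs and 74.5 and 78.7 in controls. After centring the hypomorphs lay just above the controls, with a log2 change of 0.15 ± 0.20 (SE; limma, adjusted p 0.744) and a 95% interval of -0.30 to 0.60. Relative to the median of tested probe sets it was -0.02. The dim 1428611_at had 37.0 and 27.8 in hypomorphs and 29.3 and 19.5 in controls, with an estimate of 0.06 ± 0.43 (SE) in the fit without a filter.

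Another Atg7 probe set varied between arrays within both groups. The dim 1428610_at had signals of 57.1 and 8.01 in the hypomorphs and 6.97 and 39.8 in the controls. In each group 1 array was thus several times brighter than the other. The lower signals, 8.01 and 6.97, lay below the highest B. subtilis control of their array, so the size of that gap is uncertain. The group means were alike, with a log2 change of 0.01 ± 0.87 (SE) in the fit without a filter. The bright arrays were hypomorph replicate 1 and control replicate 2. The remaining one, 1446633_at, had signals of 1.98 and 9.65 against 9.89 and 9.49, all below the highest B. subtilis control of their array.

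Atg10, the E2-like enzyme gene for ATG12, is measured by 1 probe set, 1419081_at. Its signals were 52.8 and 47.5 in hypomorphs and 29.9 and 28.7 in controls. The hypomorphs were the higher pair, by a log2 change of 0.40 ± 0.32 (SE; adjusted p 0.564 in limma). The 95% interval, -0.31 to 1.11, is the widest upward among the tested members.

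Atg3 encodes the E2-like enzyme that receives LC3. Its bright probe set, 1448993_at, had signals of 1278 and 817 in hypomorphs and 559 and 786 in controls. After centring both hypomorphs were above both controls, by a log2 change of 0.27 ± 0.15 (SE; limma, adjusted p 0.415) with a 95% interval of -0.05 to 0.59. This was the smallest SE among the tested members. The dim 1418179_at had 22.1 and 15.0 in hypomorphs and 6.84 and 13.9 in controls, and 0.46 ± 0.56 (SE) in the fit without a filter.

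**Figure D3:**
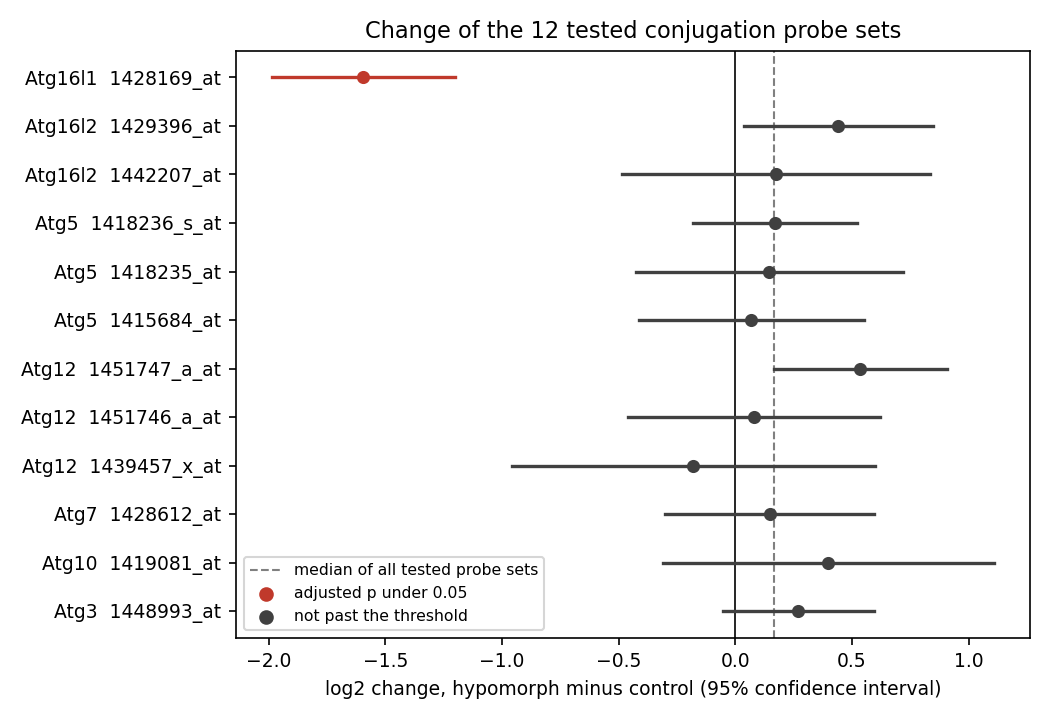
Log2 change, hypomorph minus control, of the 12 tested member probe sets (points) with 95% confidence intervals (bars). The solid line marks 0 and the dashed line the median change of all tested probe sets, 0.17. The interval of Atg16l1 lies wholly below the intervals of the other 11 probe sets.

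Counted together, 1 of the 12 tested member probe sets was called, beside the 0.0533% called over all tested probe sets. An unadjusted p under 0.05 was reached by 3, those of Atg16l1, Atg16l2 and Atg12, beside 13.5% of all tested probe sets. Hypomorphs lay above controls without overlap in 7 of the 12, beside 40.8% of all tested probe sets, and below without overlap in 1, beside 7.53%. The 11 probe sets other than the called one had log2 changes of -0.18 to 0.54 with a median of 0.17, the same to 2 decimals as the median over all tested probe sets. Of their 95% intervals 9 held 0, and none reached below -0.96, while that of Atg16l1 ended at -1.20.

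A ratio of 2 probe sets on the same array does not depend on scaling each array by a single factor, though quantile normalization can alter it. The log2 ratio of the Atg16l1 signal to that of the brightest Atg16l2 probe set was -1.30 and -1.48 in hypomorphs and 0.80 and 0.56 in controls. Against the brightest Atg5 probe set it was -1.33 and -1.33 in hypomorphs and 0.40 and 0.54 in controls. Only the difference between groups can be read from such ratios, and it was -2.07 against Atg16l2 and -1.80 against Atg5. Against Atg12, Atg7, Atg10 and Atg3 the difference was -2.16, -1.77, -2.04 and -1.89. For each of the 6 partners both hypomorph ratios lay below both control ratios, by a gap of at least 1.59. All 6 ratios share the same Atg16l1 signal, so they are not separate observations. With 2 arrays against 2, a two-sided exact permutation test cannot give a p below 0.333, the value of each of these ratios.

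**Figure D4:**
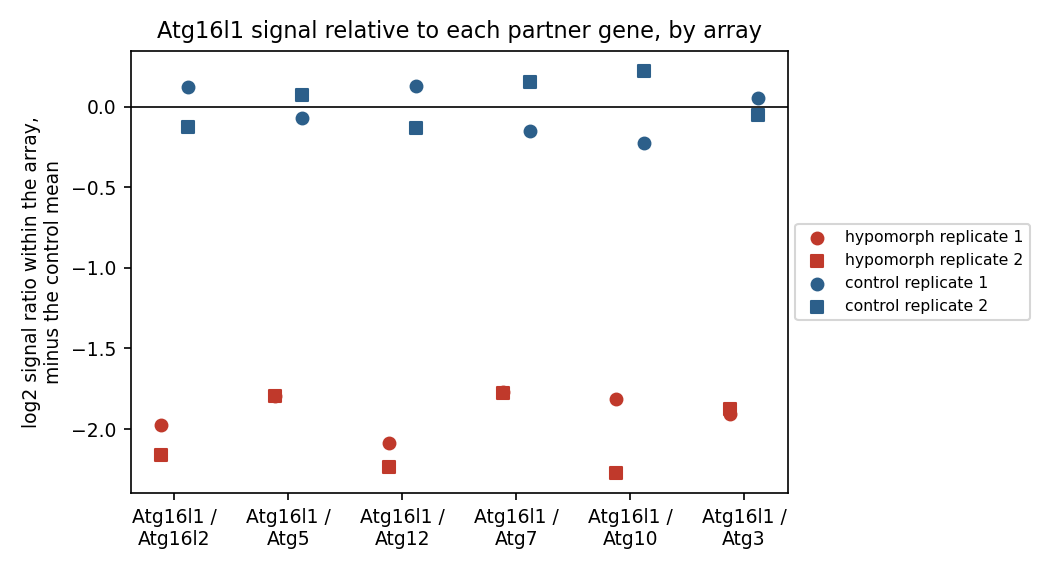
Log2 ratio of the brighter Atg16l1 probe set to the brightest probe set of each partner gene on the same array, from deposited signals, minus the mean of the control arrays (y axis). Each point is 1 array. The group means differ by -2.16 to -1.77, hypomorphs being lower for each partner.

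The wider autophagy pathway held no called gene. Of 53 other autophagy genes in 7 lists by role, 50 were named on the arrays and 47 were tested, each by its brightest probe set, and a few stand in more than 1 list. None passed in limma, beside 4 of 10242 tested genes, or 0.0391%. An unadjusted p under 0.05 was reached by 8, all higher in hypomorphs, beside 15.8% of all tested genes, of which 1523 of 1619 were higher. That direction depended on the scaling: with quantile normalization 3 of the 47 reached it, 1 of them higher, beside 625 of all tested genes, 362 of them higher. Their median log2 change was 0.16, against 0.19 for all tested genes.

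Among the substrates and proteases of the second reaction, 9 of 9 genes were tested and 0 called. Map1lc3a, an LC3 gene, had a log2 change of 0.45 ± 0.16 (SE; adjusted p 0.323), and Gabarapl1 and Map1lc3b had 0.19 and 0.12. The list's median was 0.09. Of the genes whose products recruit or bind the ATG16L1 complex, 6 of 9 were tested, with a median of 0.00. Rb1cc1, the FIP200 gene of the ULK complex, was at 0.27 and Rab33b, a Rab GTPase gene whose product binds ATG16L1, at 0.23 (adjusted p 0.416 and 0.492).

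In the ULK complex, which starts autophagy, 5 of 5 genes were tested with a median of 0.27, Atg101 being at 0.48 and Ulk2 at 0.38 (adjusted p 0.338 and 0.356). In the PI3-kinase complexes the median over 8 genes was 0.19. Atg14, which directs that kinase to autophagy, was at 0.71 ± 0.23 (SE), with an adjusted p of 0.313. Phagophore growth (9 tested genes), cargo receptors (7) and fusion with lysosomes (6) had medians of 0.19, 0.26 and 0.10. Sqstm1, the p62 cargo receptor gene, was at 0.26 with an adjusted p of 0.403. Each list lay within 0.19 of the median of all tested genes.

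**Figure D5:**
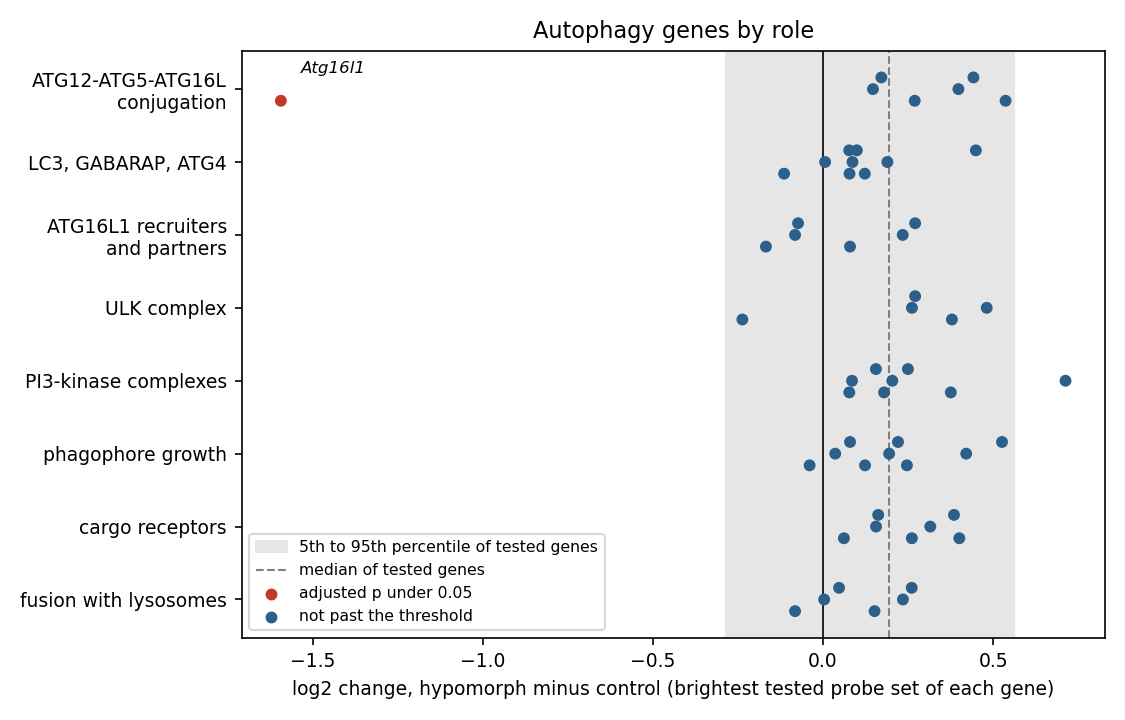
Log2 change, hypomorph minus control (x axis), of each tested autophagy gene by its brightest probe set, in rows by role. The grey band spans the 5th to 95th percentile of all tested genes and the dashed line their median, 0.19. Atg16l1 is the only red point, at -1.59, and Atg14 lies above the band at 0.71.

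The genes with profiles most like that of Atg16l1 were found by the Euclidean distance between centred log2 profiles, each with its mean removed, over the 4 arrays and 10241 other tested genes. They were Stk25, at a distance of 0.36, Thegl (0.38), Sag (0.41), Lpcat4 (0.51) and Clec11a (0.56). Stk25, a kinase gene, had signals of 122 and 64.5 in hypomorphs and 176 and 191 in controls. Its log2 change of -1.37 ± 0.20 (SE) had an adjusted p of 0.0616 in limma. The other 4 had log2 changes of -1.29 to -1.08 and adjusted p-values of 0.265 to 0.313. Of the 5, 2 lie on the chromosome of Atg16l1 in RefSeq's gene order (GRCm38.p6). The share of all tested genes on that chromosome was not counted, so the 2 cannot be set against it. Sag, the retinal arrestin gene, is the next protein-coding gene to Atg16l1, 1 place away, and Stk25 is 77 protein-coding genes away. Sag had signals of 28.7 and 19.7 in hypomorphs and 37.2 and 55.7 in controls, and its adjusted p in limma was 0.309. All 4 of these values lay above the B. subtilis controls of their array, while Thegl and Clec11a did so on 3 of the 4 arrays, their signals in hypomorph replicate 2 being 15.2 and 17.4. The distance was chosen to find such genes, so their values describe the choice and support nothing.

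Summed markers of some other cell types also separated the groups after centring. The summed centred signal of 5 B cell markers, was 391 and 408 in hypomorphs and 496 and 616 in controls. That of 6 macrophage markers was 766 and 694 against 820 and 956, and that of 8 dendritic cell markers was 2698 and 2858 against 3612 and 3185. Cd74, H2-Aa and H2-Ab1 made up most of the dendritic cell sum, while Itgax, Flt3, Siglech and H2-Ab1 each overlapped between the groups. These 3 sums were lower in hypomorphs without overlap after centring, but not every gene in them. As deposited, the 3 sums overlapped between the groups, while Atg16l1 was lower both before and after centring. The sums of 7 thymic epithelium and stroma markers and of 3 erythroid markers behaved alike, lower without overlap after centring and overlapping as deposited. They were 137.2 and 108.1 against 150.5 and 147.1, and 21.70 and 37.42 against 40.04 and 43.88. Of these markers only 3 of the 7 and 0 of the 3 lay above every B. subtilis control on all arrays. After centring, 4 of 5 B cell, 2 of 5 macrophage and 3 of 7 dendritic cell markers among the tested genes were lower without overlap, beside 7.53% of all tested probe sets. The markers were counted by the brightest probe set of each gene, while that share counts every tested probe set. Pax5, a B cell transcription factor gene, was the 1 of these markers that was higher without overlap, with signals of 44.1 and 36.9 in hypomorphs and 24.2 and 20.9 in controls. All 5 B cell markers, 5 of 6 macrophage markers and 6 of 8 dendritic cell markers lay above every B. subtilis control on all arrays, and no marker had a signal of 0. The sum for 10 thymocyte markers overlapped, at 30846 and 35043 against 29081 and 34782. That of 5 granulocyte markers also overlapped, at 2048 and 3546 against 606 and 5564, with the control animals further apart than the hypomorphs. Taken singly, 4 of the 10 thymocyte markers were higher without overlap and 0 lower, beside 40.8% of all tested probe sets higher. No gene of these lists was called.

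Shared haemoglobin probe sets were higher in hypomorphs, unlike the sum of the 3 dim erythroid markers. The alpha-globin probe set 1452757_s_at had signals of 1032 and 876 in hypomorphs and 234 and 327 in controls, a log2 change of 1.42 ± 0.15 (SE; limma, adjusted p 0.0144). The beta-globin probe set 1417184_s_at had 603 and 507 against 174 and 224, a log2 change of 1.12 ± 0.15 (SE; adjusted p 0.0444). Of the 4 shared probe sets 3 were called, beside 0.0533% of all tested probe sets, and in all 4 both hypomorphs lay above both controls. These probe sets were singled out after their values were seen. The part of any of these cell type markers in the Atg16l1 value was not tested.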

How the data were processed

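The deposited values are signals of probe sets, intensity values that the authors left on a linear scale. Per the submitters' processing notes they were made in GCOS, Affymetrix's own software. The sources used here give neither its version nor a scaling target, detection calls or a genome build. Per the labels' protocols, total RNA was isolated with a Qiagen kit and labelled with biotin. Of 45101 deposited probe sets, 64 Affymetrix controls were left out.

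Each array was scaled to a common median of log2 signals, as medians spanned 0.71 (log2), above a limit of 0.3. The pseudocount of 2.29 is the 10th percentile of the deposited signals, so changes of dim probe sets are understated. The comparison of the groups used limma 3.58.1 under R 4.3.3 (lmFit, eBayes with a variance trend, two-sided, no covariates), with Benjamini-Hochberg adjustment over all 22519 tested probe sets and a threshold of 0.05. The fit was also run on simulated data with independent, normally distributed values. The simulation held no shift common to many probe sets, as these data have, and its outcome is not reported here.

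Members and gene lists were chosen with earlier results of these data known. Named genes are all members, up to 3 genes of each autophagy list with the smallest p, and the 5 profiles nearest to Atg16l1. Not all that this allows are named, and cell type markers and shared haemoglobin probe sets are named beside them. Alternatives were other scalings, pseudocounts and filters, no variance trend, a replicate block and leaving out each array. Precision is limited by the number of arrays, 2 per group.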

Additional observations from a re-analysis of the deposited data

How the results depend on the processing

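The brighter Atg16l1 probe set was lower in hypomorphs under all 14 alternatives. It lost its call with no centring (log2 change -1.25), and with no filter, no variance trend or the replicate block (-1.59 each). With single arrays left out its log2 change ran from -1.68 to -1.51, and each such fit assumes that the lone animal varies like the other group. Number of called members: 1 with all arrays, 0 under these 4 settings, and 0 to 1 with single arrays left out. Called probe sets in all: 12 as reported, 4 with quantile normalization, 7 with centring on tested probe sets, 79 with no centring, 3 with no filter, 0 with no variance trend (2161 at an unadjusted p under 0.05 in limma) and 4 with the replicate block, and 7 to 253 with single arrays left out, the highest without hypomorph replicate 1, where 103 were lower. No other member and no other autophagy gene was called under any alternative run. Taking logs before centring, chosen after seeing the data, left 12 calls.

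Replicate numbers were not taken to pair animals. Deviations of same-numbered arrays correlated at 0.09 over the tested probe sets. With the replicate block the adjusted p of Atg16l1 was 0.0909 and 4 probe sets were called.

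Uncalled members near 0 changed sign with scaling. With quantile normalization Atg5 was at -0.0096 (1418236_s_at) and -0.057 (1415684_at) and Atg12 1451746_a_at at -0.044. With centring on tested probe sets Atg5 was at -0.0077 (1418235_at) and -0.084 (1415684_at), Atg12 1451746_a_at at -0.073 and Atg7 1428612_at at -0.0062. With no centring Atg12 1439457_x_at was at 0.15. With single arrays left out Atg5 1418235_at ran from -0.19 to 0.48, Atg5 1415684_at from -0.039 to 0.18, Atg12 1451746_a_at from -0.15 to 0.30 and Atg12 1439457_x_at from -0.55 to 0.19. These scalings moved the median change of tested probe sets from 0.17 to 0.01 (quantile and tested) or 0.51 (no centring).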

Other observations

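Other ubiquitin-like conjugation systems use E1 and E2 enzymes related in kind to ATG7, ATG3 and ATG10. A fixed list held 19 genes of these systems, ubiquitin-like modifiers as well as enzymes. Of these, 11 were named on the arrays and tested, and 0 were called in limma. An unadjusted p under 0.05 was reached by 5, all higher in hypomorphs, beside 15.8% of all tested genes, of which 1523 of 1619 were higher. With quantile normalization 0 of the 11 reached it in limma, and with centring on tested probe sets 1 did. Sumo3, a ubiquitin-like modifier gene, had a log2 change of 0.47 ± 0.14 (SE), Sae1, an E1 subunit for SUMO, 0.39 ± 0.13 (SE), and Uba6, an E1 for ubiquitin and FAT10, 0.41 ± 0.15 (SE). Their adjusted p-values were 0.313, 0.317 and 0.330. The list's median was 0.30, against 0.19 for all tested genes.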
